A study of Mus musculus with 12 samples.

Results

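The RNAs described here are the small nucleolar RNA (snoRNA) and small Cajal body RNA genes of mouse lymphoma cells, taken as every probe set whose single gene symbol begins with Snord (box C/D class), Snora (H/ACA class) or Scarna (Cajal class). The rule found 73 probe sets for 69 genes, 45 of the box C/D class, 18 of the H/ACA class and 6 of the Cajal class, among 30098 genes that had a probe set with a single symbol. For the 4 genes with more than 1 such probe set (Snora73b, Snord118, Snord13 and Snord58b) the one with the highest mean over all arrays was used. A further 45 probe sets carried a snoRNA or Cajal RNA symbol beside that of another gene and were kept apart.

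A pair of lymphoma lines was compared on Affymetrix GeneChip MTA 1.0 arrays, with 3 cultures in each of 4 groups and 1 array per culture. The 3s cells came from a mouse with the Mx1Cre transgene, 2 floxed Runx1 alleles, EµMyc and p53+/-. They were studied after IFNβ, which drives Cre from the interferon-inducible Mx1 promoter and so excises Runx1, and after vehicle. The p53+/- genotype is that of the mice. The authors describe the 3s line as p53 null and report that most established lines had lost their wild-type Trp53 allele. The 30s cells came from a mouse with the same Mx1Cre, EµMyc and p53+/- genotype but wild-type Runx1, which Cre cannot excise. They received the same IFNβ or vehicle. Both lines came from spleen lymphomas of C57BL6/CBA mice, and IFNβ was given at 50 U/ml for 72 h, against PBS with 0.1% BSA, with 6 days of growth in fresh medium before RNA was taken. Each line stands for 1 tumour, so the cultures show the spread within a line and not between tumours of a genotype. In the sample records the genotype field followed the treatment rather than the line, so cultures were grouped by line name and by what they received.

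Most snoRNAs are cut out of the introns of other genes, their hosts, and work in the nucleolus as guides. Box C/D RNAs, bound by fibrillarin, direct methylation of the ribose of chosen rRNA bases, and H/ACA RNAs, bound by dyskerin, direct the change of uridine to pseudouridine. A few, among them U8 (Snord118), U14 (Snord14 genes) and U17 (Snora73 genes), are needed for the cleavage of the rRNA precursor itself, and Cajal body RNAs guide the same changes on the snRNAs of the spliceosome. Growth of lymphoid cells under Myc calls for much ribosome synthesis, which is the setting in which these RNAs are made.

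The arrays showed B lineage cells. Of 8 B lineage markers measured, 6 had a mean log2 value above 8, with Cd79b at 14.67 and Ebf1 at 13.60, while none of the 5 T and NK markers, 5 myeloid markers and 2 erythroid markers did. Of 4 stromal and endothelial markers, Pecam1, which B cells also make, was the one above 8. The Runx1 probe set read 7.88 ± 0.18 in 3s cells after IFNβ and 7.90 ± 0.11 with vehicle, and 8.32 ± 0.11 in 30s cells after IFNβ and 8.24 ± 0.12 with vehicle (mean ± SD, n = 3 each), and where its probes lie relative to the floxed part was not given. Medians over all genes were between 5.43 and 5.49 on the 12 arrays.

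The 69 genes were mostly bright and noisy. Their means over the 12 arrays ran between 4.28 and 15.75 on the log2 scale, with a median of 9.97 against 5.47 over all genes, and 63 of the 69 were brighter than the median gene. On every array 56 of them read above the brightest of the 23 background probe sets, whose highest value was between 5.28 and 6.69 per array (37 box C/D, 15 H/ACA and 4 Cajal RNA genes), and 5 read at or below it on all 12. The median SD within groups was 0.16 for the 69 genes, against 0.08 over all genes. The brightest readings by class were those of Snord82 (15.75), Snord87 (15.74), Snord16a (14.61), Snord4a (14.59) and Snord42a (14.26) for box C/D, those of Snora75 (13.97), Snora31 (13.56), Snora7a (12.29), Snora68 (12.26) and Snora47 (12.05) for H/ACA, and those of Scarna9 (15.18), Scarna17 (9.92), Scarna8 (7.95), Scarna10 (7.77) and Scarna2 (6.73) for the Cajal class. Probes differ in how strongly they bind, so these readings do not order the amounts of the RNAs. RNA was isolated on RNeasy columns, which hold short RNAs poorly, and an array reading of an intronic RNA can come from the mature snoRNA, the spliced intron or the unspliced host, which cannot be told apart here. Nor can fewer cells that make an RNA be told apart from less RNA in each cell.

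The first comparison asked what followed IFNβ in 3s cells, in which it excises Runx1. No snoRNA or Cajal RNA gene was called changed. At an adjusted p under 0.05 in limma, 0 of the 69 genes were called, against 307 of 30098 genes (1.02%) on the array. With so small a share called on the array, 0 of 69 does not set these genes apart from others. An unadjusted p under 0.05 was found for 4 of the 69, against 2424 of the 30098. The median difference between IFNβ and vehicle was 0.02 for the 45 box C/D genes, 0.02 for the 18 H/ACA genes and 0.06 for the 6 Cajal RNA genes, against 0.00 over all genes. The precision bounded these effects only loosely, with a median SE of 0.13 for the 69 genes against 0.07 over all genes. The 95% interval of the difference lay inside a 2-fold change in either direction for all 69 genes, and inside a 1.5-fold change for 56. The IFNβ and vehicle arrays did not overlap for 5 of the 69 genes, against 13.4% of all genes.

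The 4 genes with an unadjusted p under 0.05 moved in both directions. Scarna9, a Cajal RNA that guides modification of the U2 snRNA, read 15.33, 15.36 and 15.40 in 3s cells after IFNβ and 15.18, 15.27 and 15.02 with vehicle. The groups did not overlap, and the difference was 0.20 ± 0.06 (SE), with an adjusted p of 0.22. Snord98 read 0.25 higher after IFNβ, while Snord35a, which lies in the ribosomal protein gene Rpl13a, read 0.23 lower and Snora69 read 0.33 lower, all 3 short of the adjusted threshold. For Snord82 and Snora75, which both lie in the gene of nucleolin, the differences were 0.13 and 0.11.

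The same treatment in 30s cells asked which changes follow IFNβ where Runx1 cannot be excised. A pair of near-identical genes rose, Snora73a and Snora73b, which both encode U17 and both lie in the noncoding gene Snhg3. They were 2 of the 69 genes, against 346 of 30098 genes on the array (1.15%). An unadjusted p under 0.05 was found for 12 of the 69, 10 of them higher and 2 lower. On the whole array it was found for 4066 of 30098 genes, 2601 higher and 1465 lower. Class medians were 0.08 for box C/D, 0.04 for H/ACA and 0.01 for Cajal RNA genes, against 0.01 over all genes. The 95% interval lay inside a 2-fold change for 68 of the 69 genes, all but Snora20, and inside a 1.5-fold change for 53. The IFNβ and vehicle arrays did not overlap for 14 of the 69 genes, against 18.7% of all genes.

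Snora73b read 12.02, 12.13 and 12.01 in 30s cells after IFNβ and 11.50, 11.54 and 11.57 with vehicle. Snora73a read 10.86, 11.01 and 10.90 in 30s cells after IFNβ and 10.20, 10.57 and 10.38 with vehicle. For both genes every IFNβ array lay above every vehicle array. The rises were 0.52 ± 0.10 for Snora73b (adjusted p = 0.042 in limma) and 0.53 ± 0.11 for Snora73a (adjusted p = 0.046). Both values came from probe sets to which the array's annotation gives no genome position, and the copies are alike enough for the probes of either to read both, so the 2 calls are not independent. A second Snora73b probe set differed by 0.44 in 30s cells and a probe set shared by Snhg3 and Snora73a by 0.39, each higher on all 3 IFNβ arrays, with adjusted p of 0.089 and 0.092 over all probe sets. The calls sat close to the threshold. Leaving out 1 array at a time left between 0 and 2 genes called, and 0 were called when only the 30s arrays were fitted.

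Snord104 came next in 30s cells, at 10.22, 10.20 and 10.22 after IFNβ and 9.65, 9.84 and 10.00 with vehicle. Its groups did not overlap, and the difference of 0.39 ± 0.09 missed the threshold (adjusted p = 0.081). Snora20, in the gene of the chaperonin subunit Tcp1, had the lowest difference, with 9.52, 9.67 and 9.04 after IFNβ and 10.54, 9.95 and 9.70 with vehicle. The vehicle arrays were spread over a wide range, and the difference of -0.65 ± 0.25 had an adjusted p of 0.28.

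The effects of IFNβ in the lines were also set against each other. No gene differed at an adjusted p under 0.05 (0 of 69, against 307 genes or 1.02% of all). An unadjusted p under 0.05 was found for 8 of the 69, against 3367 of 30098 genes on the array. In 3s cells Snora73a read 9.55, 9.35 and 9.63 after IFNβ and 9.75, 9.46 and 9.43 with vehicle, so that its groups overlapped there. The difference between the effects, 3s minus 30s, was -0.57 for Snora73a (adjusted p = 0.14) and -0.43 for Snora73b (adjusted p = 0.27). Snord35a was closest to the threshold at -0.43 (adjusted p = 0.13). For 65 of the 69 genes the interval of the difference lay inside a 2-fold change.

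**Figure D1:**
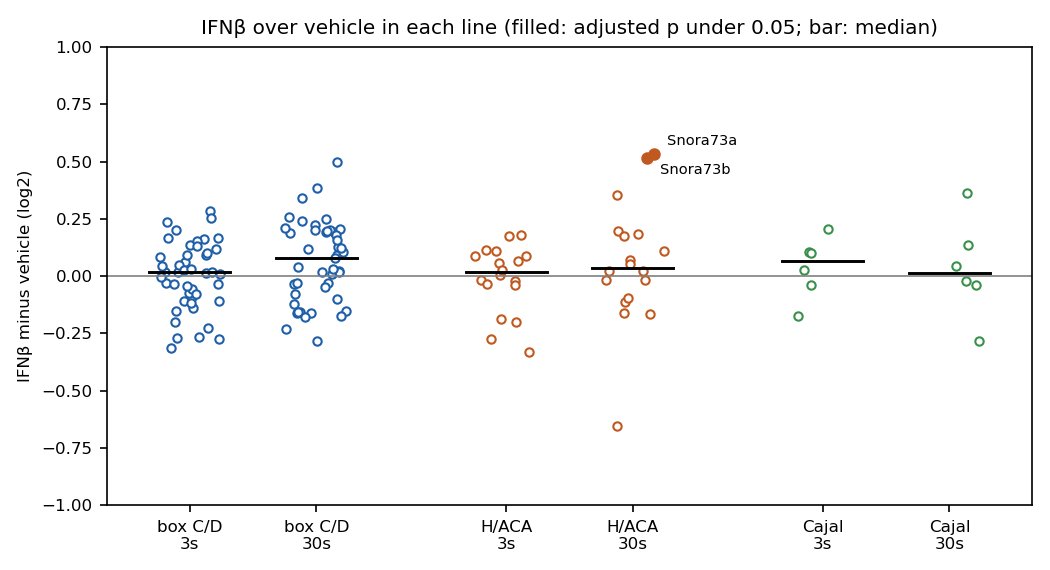
Difference between IFNβ and vehicle (log2) for each of the 69 genes, by class and line, with each point a gene, filled points at an adjusted p under 0.05 and black bars at the class median. The class medians lie between 0.01 and 0.08, and the 2 filled points are Snora73a and Snora73b in 30s cells.

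The lines themselves differed far more. Between vehicle-treated 3s and 30s cells, that is, without IFNβ, 31 of the 69 genes were called, 24 of them lower in 3s cells and 7 higher. Over all genes 24.9% were called, 14.3% higher and 10.6% lower in 3s cells. Bright genes were called more often than dim ones, at 43.8% of those above the median brightness (26.4% higher and 17.4% lower), so the share called of the 69 genes, 44.9%, was close to that of genes as bright. The direction was not. Of the 69 genes 34.8% were lower and 10.1% were higher, whereas a mean over 10 equal bins of brightness, weighted by how many of the 69 lay in each, was 18.1% lower and 28.0% higher. All 31 had vehicle arrays that did not overlap between lines, among 36 of the 69 without overlap, against 38.2% of all genes.

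By class, 20 of 45 box C/D genes were lower in 3s cells and 3 higher, with a median difference of -0.29. Of 18 H/ACA genes 4 were lower and 3 higher, with a median of -0.07, and of 6 Cajal RNA genes 1 was higher and none lower, with a median of -0.09. The median over all genes was -0.01. Among the 31, 8 were lower by more than 2-fold and 1 was higher by more than 2-fold, while 1.92% of all genes were called with a difference over 2-fold.

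**Figure D2:**
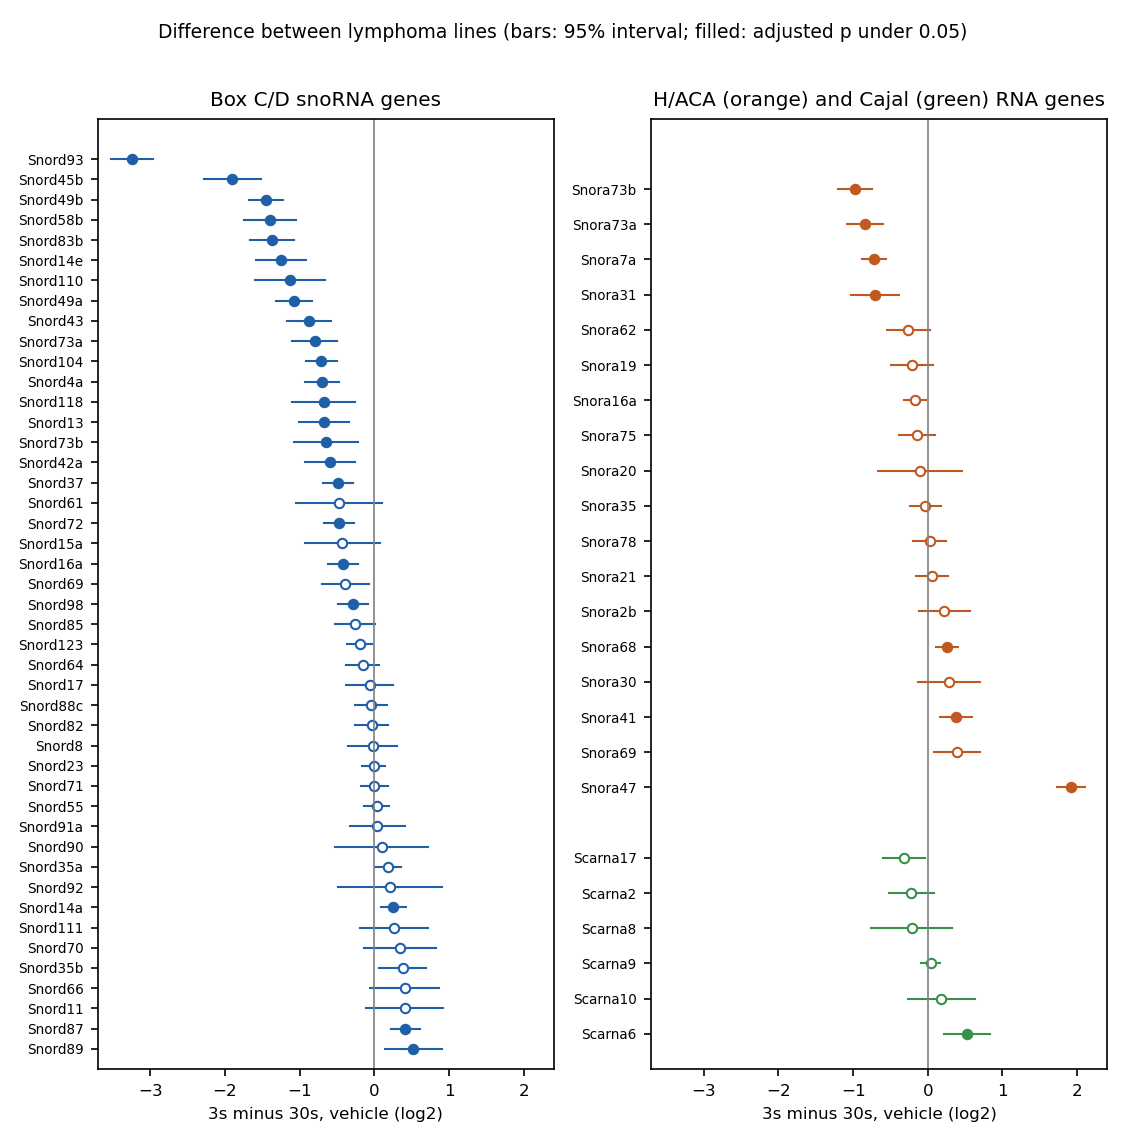
Difference between 3s and 30s cells with vehicle (log2, below 0 is lower in 3s cells) for the 69 genes by class, with bars for the 95% interval and filled points at an adjusted p under 0.05. The filled box C/D points run between -3.24 for Snord93 and 0.52 for Snord89, and most lie left of 0.

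Snord93 differed most. It read 12.16, 12.11 and 11.76 in 3s cells with vehicle and 15.28, 15.31 and 15.16 in 30s cells with vehicle. The difference was -3.24 ± 0.13 (SE, adjusted p = 9.2e-09), a 9.47-fold lower signal in 3s cells, and ranked 37 among all 30098 genes by size. The IFNβ arrays gave 11.88, 12.27 and 11.77 in 3s cells and 15.34, 15.40 and 15.37 in 30s cells. All 6 arrays of 3s cells lay far below all 6 of 30s cells. Snord93 lies within the noncoding gene 2700038G22Rik, which was itself lower in 3s cells by a smaller step, -0.93 (adjusted p = 7.2e-05).

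Snora47 differed most in the other direction. It read 13.16, 12.90 and 12.89 in 3s cells with vehicle and 10.93, 11.15 and 11.12 in 30s cells with vehicle. The lines were well apart, by 1.92 ± 0.08 (adjusted p = 2.4e-08), and rank 145 among all genes. Its host Zbed3, which encodes a zinc finger protein, was higher in 3s cells by 0.52 (adjusted p = 0.00024).

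Snord45b, in an intron of the Rab geranylgeranyl transferase subunit gene Rabggtb, read 12.67, 11.96 and 12.22 in 3s cells with vehicle and 14.15, 14.37 and 14.04 in 30s cells with vehicle. No array of one line came within 1 log2 unit of the other line. The difference was -1.90 ± 0.17 (adjusted p = 7.9e-06). Snord58b, in the ribosomal protein gene Rpl17, read 10.61, 10.63 and 10.04 in 3s cells and 11.87, 11.86 and 11.74 in 30s cells with vehicle, again without overlap and with a difference of -1.40 ± 0.16 (adjusted p = 4.0e-05). The probe set used for Snord58b is named for another chromosome than the one on which RefSeq places the gene, so its source is less sure. A second probe set, named for the chromosome of the gene, gave -1.39 ± 0.17 (adjusted p = 0.00025 over all probe sets).

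**Figure D3:**
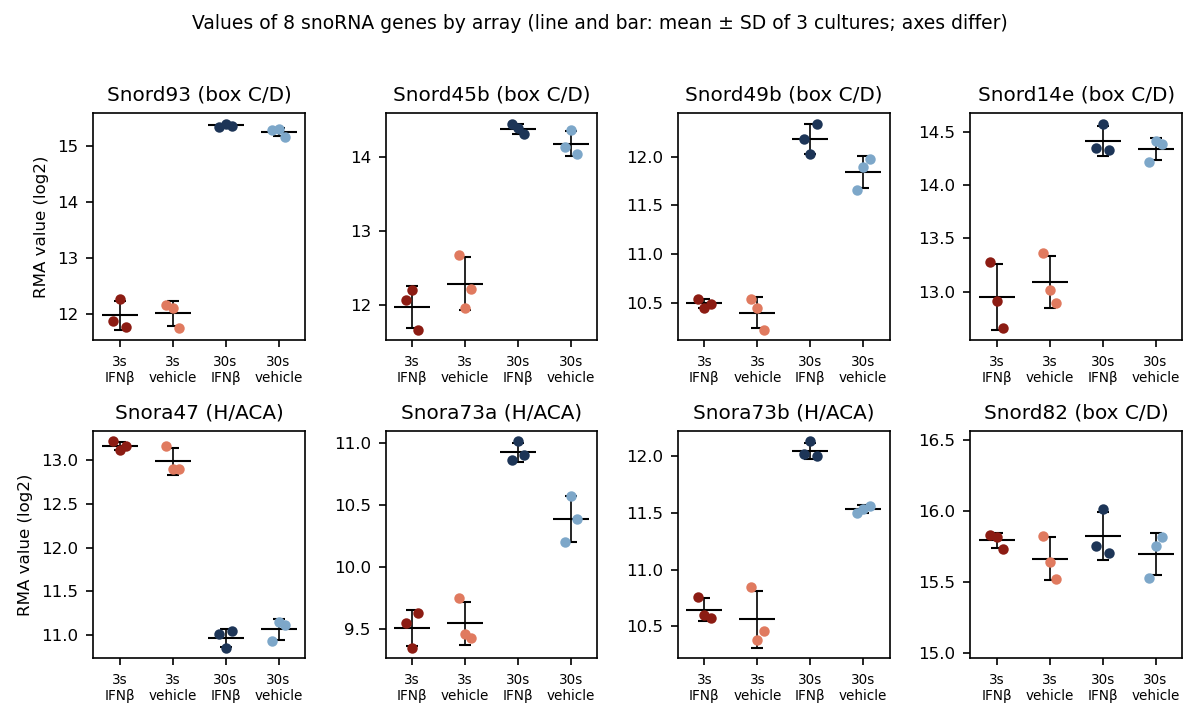
RMA values (log2) of 8 snoRNA genes on each array, with black lines for the mean ± SD of 3 cultures and an axis of its own for each gene. Snord93, Snord45b, Snord49b, Snord14e, Snora73a and Snora73b lie lower on all 6 arrays of 3s cells than on all 6 of 30s cells, Snora47 lies higher, and the groups of Snord82 overlap.

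Genes that share a host had differences of the same sign with vehicle. There were 7 host genes with a pair of measured members each, 14 members in all, and in every pair both members had a difference of the same sign between the vehicle-treated lines. On the IFNβ arrays the same held for 6 of the 7, with Snora75 (0.13) and Snord82 (-0.03) in the nucleolin gene Ncl on either side of 0. With vehicle both members were called in 5 pairs and neither in 2. The 5 include Snora73a and Snora73b in Snhg3, whose probes may each read both genes, so that pair could hardly disagree. Of all 69 genes 44 lay below 0 and 25 above with vehicle, so an equal sign alone says little. Snord49a and Snord49b, guides of 28S rRNA methylation in the noncoding gene 2410006H16Rik, showed it most clearly. Snord49b read 10.53, 10.44 and 10.22 in 3s cells with vehicle and 11.66, 11.90 and 11.98 in 30s cells with vehicle, and Snord49a read 10.36, 10.26 and 10.28 in 3s cells and 11.38, 11.44 and 11.31 in 30s cells. Neither gene's groups overlapped, and the differences were -1.45 ± 0.10 and -1.08 ± 0.11.

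In the ribosomal protein gene Rpl3, Snord83b differed by -1.37 and Snord43, a guide of 18S rRNA methylation, by -0.88. Snord83b read 7.08, 6.82 and 7.34 in 3s cells with vehicle and 8.48, 8.34 and 8.55 in 30s cells with vehicle, with every 3s array below every 30s array. In Rpl23a the differences were -0.70 for Snord4a and -0.60 for Snord42a, and in Rps3a1 -0.80 for Snord73a and -0.65 for Snord73b. The call of Snord42a was lost in 3 and that of Snord73b in 7 of 22 other settings. The pairs not called with vehicle were Snord82 (-0.04) and Snora75 (-0.15) in Ncl, and Snord11 (0.41, adjusted p = 0.26) and Snord70 (0.34, adjusted p = 0.33) in Nop58, the gene of a core box C/D protein. On the IFNβ arrays Snord11 and Snord70 both stood at 0.66, with adjusted p of 0.061 and 0.044.

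Of a list of 11 RNAs of rRNA processing 7 were measured, and of these 6 were lower and 1 higher in 3s cells with vehicle. Over all genes 24.9% were called in either direction, and 43.8% of those above the median brightness. The 6 hold both Snora73a and Snora73b, whose probes may each read both genes, so their calls are not independent. The list holds Snord13, a guide of acetylation, and Snord83b, whose role is less settled, beside RNAs that act in cleavage of the precursor. Snord118 (U8), needed for maturation of the 28S rRNA, read 6.85, 6.81 and 7.20 in 3s cells with vehicle and 7.45, 7.39 and 8.06 in 30s cells with vehicle. The groups lay close together without overlap, and the difference was -0.68 ± 0.19 (adjusted p = 0.022), a call lost in 4 of 22 other settings. A second, dimmer Snord118 probe set gave -0.38 ± 0.32 with overlapping groups (adjusted p = 0.53 over all probe sets). Snord13 (U13), which guides acetylation of the 18S rRNA, differed by -0.67 ± 0.15 (adjusted p = 0.0061). It did not read above the brightest background probe set on every array, so the size of its difference is uncertain. Neither gene lies within another gene.

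Snord14 genes encode U14, which pairs with the 18S part of the precursor, and they did not go the same way. Snord14e, in the heat shock cognate gene Hspa8, read 13.37, 13.01 and 12.89 in 3s cells with vehicle and 14.22, 14.42 and 14.39 in 30s cells with vehicle. Its groups were well apart, by -1.25 ± 0.15 (adjusted p = 8.2e-05), on a probe set that, like those used for the Snora73 genes, has no genome position. A probe set with a position, shared by Hspa8, Snord14c, Snord14d and Snord14e, gave -0.11 ± 0.04 (adjusted p = 0.17 over all probe sets). Snord14a, in Rps13, read 12.67, 12.72 and 12.46 in 3s cells and 12.38, 12.29 and 12.43 in 30s cells with vehicle, a narrow gap of 0.25 ± 0.08 in the other direction (adjusted p = 0.031) that was lost in 9 of 22 other settings.

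The Snora73 genes were lower in 3s cells too. With vehicle Snora73b read 10.85, 10.38 and 10.45 in 3s cells and 11.50, 11.54 and 11.57 in 30s cells, and its difference was -0.98 ± 0.10 (adjusted p = 2.7e-05). That of Snora73a was -0.84 ± 0.11 (adjusted p = 0.00013). Neither gene's vehicle groups overlapped between the lines. Of the other H/ACA genes lower in 3s cells, Snora7a, in Rpl32, differed by -0.72 (adjusted p = 2.0e-05) and Snora31, in Tpt1, by -0.71 (adjusted p = 0.0031).

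The members that were higher in 3s cells, apart from Snora47, differed by between 0.25 and 0.53. Scarna6 was the only Cajal RNA gene called, with 6.99, 6.58 and 7.25 in 3s cells with vehicle and 6.32, 6.46 and 6.47 in 30s cells with vehicle. One 3s array was close to the 30s arrays, and the difference was 0.53 ± 0.14 (adjusted p = 0.016), a call lost in 5 of 22 other settings. Scarna6 too did not exceed the brightest background probe set on every array. Its host, the autophagy gene Atg16l1, was higher by 0.29 (adjusted p = 0.021). Snord87, in Snhg6, read 16.11, 16.00 and 15.80 in 3s cells and 15.62, 15.64 and 15.40 in 30s cells with vehicle, a difference of 0.42 ± 0.09 (adjusted p = 0.0036). Snord89 (0.52), Snora41 (0.38, in the elongation factor gene Eef1b2) and Snora68 (0.26) were the others, with Snord14a. The call of Snord89 was lost in 14 of 22 other settings.

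The IFNβ arrays gave the lines a second comparison on other cultures, chosen after the vehicle result was seen. It is not a plain repeat, since IFNβ excises Runx1 in 3s cells and not in 30s cells. Line, excision and each line's response to IFNβ cannot be told apart in it. There 34 of the 69 genes were called, 27 lower and 7 higher in 3s cells, against 26.9% of all genes. Of the 31 genes called with vehicle, 27 were called with IFNβ in the same direction (87.1%), none was called in the opposite one, and for the rest of the array the share was 77.9%. The 4 genes called only with vehicle were Snord14a, Snord72, Snord89 and Snord98, and 7 were called only with IFNβ. Scarna17 was among these, with 9.77, 9.63 and 9.67 in 3s cells after IFNβ and 10.47, 10.26 and 10.29 in 30s cells after IFNβ. Those groups were well apart, by -0.65 (adjusted p = 0.0022), while with vehicle the difference was -0.31 (adjusted p = 0.10). Over all arrays, the 6 of 3s cells lay entirely below the 6 of 30s cells for 22 of the 69 genes and entirely above for 5, while 22.6% of all genes were apart in either direction.

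The counts are given next by where a gene lies. RefSeq puts 65 of the 69 genes within another gene and 4 (Scarna2, Snord118, Snord13 and Snord89) in none, without regard to strand. Of 20 members in a ribosomal protein gene, 10 were lower and 2 higher in 3s cells, with a median difference of -0.42. Of 10 in noncoding genes alone, 6 were lower and none higher, with a median of -0.78. Of 35 in other protein-coding genes, 6 were lower and 4 higher, with a median of -0.02. A member spanned by both a noncoding and a protein-coding gene was counted with the protein-coding ones. This holds for Snord87, higher in 3s cells, which lies in Snhg6 and is also spanned by the protein-coding Mcmdc2 (mean 5.49). Over all genes 10.6% were lower and 14.3% higher, and in the mean weighted by the brightness of the 69 genes 18.1% and 28%. Members of the same host were each counted, so the counts are not of independent genes. This holds for the pairs in Rpl3, Rpl23a and Rps3a1, and for those in Snhg3 and 2410006H16Rik among noncoding genes. Whether these groups of members differ from each other was not tested.

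The host itself could be read for 38 members in 35 genes, since the probe sets of other hosts carry several symbols. Where more than 1 measured gene spans a member, the brightest was used. For Snord91a this was Tsr1, at -0.0008, while Srr, which also spans it, stood at -0.37 (adjusted p = 0.0050 in limma). Of the 38 members, 12 were called between the lines, and the host was called in the same direction for 7, in the opposite direction for none and not called for 5. Over all genes 24.9% were called in either direction, and 54.2% of protein-coding genes brighter than the median. Of the other 26 of the 38 members, which were not called, the host was called for 7. Eif3a stood at -0.45 with Snora19 at -0.21, Sf3b3 at 0.44 with Snord111 at 0.27, and Kansl2 at 0.18 with Snora2b at 0.22. Snx5 stood at -0.31 with Snord17 at -0.06, Ap1g1 at 0.17 with Snord71 at 0.00, and Chd8 at -0.12 with Snord8 at -0.02. Tcp1, at 0.15, was on the other side of 0 from Snora20, at -0.10. The member's difference was larger in size than its host's for 12 of the 12 called members, which were chosen for their own difference, and for 17 of the 26 others. Snord14e stood at -1.25 while Hspa8 was at -0.02, and Snord73a stood at -0.80 while Rps3a1 was at -0.04. Across the 38 members the differences of member and host had a Pearson r of 0.80 and a Spearman rho of 0.70, with r at 0.52 without Snord93 and Snora47. These are correlations across genes read on the same arrays, some of which share a host, and genes are not replicates.

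**Figure D4:**
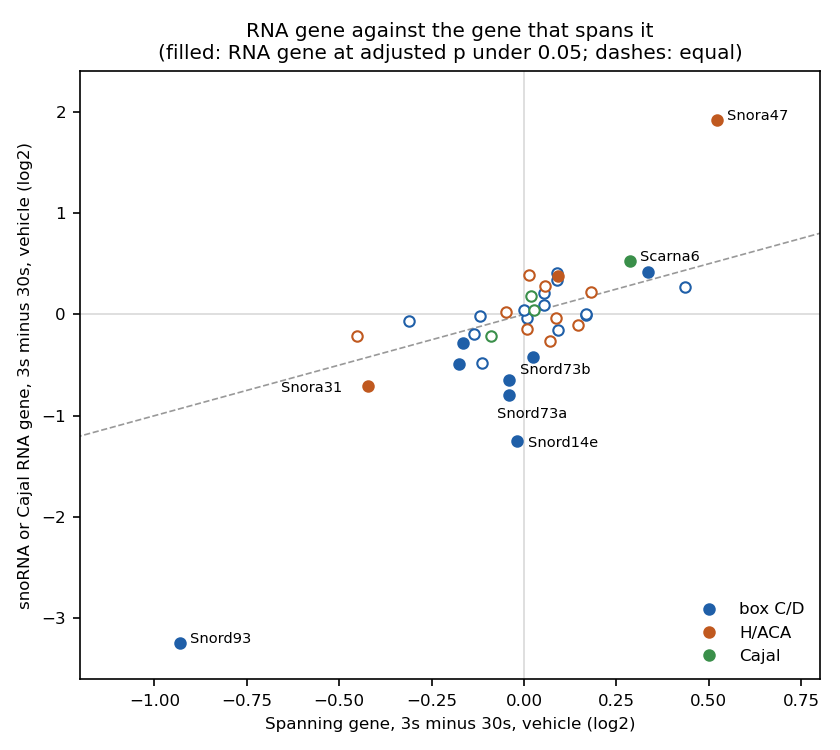
Difference between 3s and 30s cells with vehicle (log2) of 38 snoRNA and Cajal RNA genes against that of the gene that spans each, with filled points at an adjusted p under 0.05 for the member and dashes where both are equal. Snord93 and Snora47 differ in the direction of their hosts and by more, while Snord14e, Snord73a and Snord73b lie near 0 on the host axis.

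Genes of proteins that work with these RNAs were called between the lines with vehicle in both directions, as were 30.7% of all protein-coding genes and 54.2% of those brighter than the median. Of the box C/D core proteins 2 were measured, with the methyltransferase fibrillarin (Fbl) higher in 3s cells by 0.18 (adjusted p = 0.014) and Nop58 at 0.09 (adjusted p = 0.12). Of the 4 H/ACA core proteins 1 was lower, Gar1 at -0.29 (adjusted p = 0.00095), while the pseudouridine synthase dyskerin (Dkc1) was at 0.00. Of 9 assembly factors 3 were higher and 2 lower, among them Pih1d1 at 0.41 and Znhit6 at -0.52. Of 7 Cajal body and cap factors 2 were lower, Nolc1, the nucleolar and coiled-body phosphoprotein, at -0.55 (adjusted p = 4.1e-05) and the cap methylase Tgs1 at -0.24.

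Of 9 factors of trimming and decay 3 were higher and 3 lower, with the lariat debranching enzyme Dbr1 at 0.59 (adjusted p = 1.4e-05) and the exosome nuclease Exosc10 at -0.33. Of 9 noncoding host genes 2 were lower, Snhg5 at -0.60 and Snhg15 at -0.58, and 2 higher, Snhg6 at 0.33 and Snhg17 at 0.32. Telomerase RNA (Terc), which ends in an H/ACA domain but carries another name, stood at -0.82 (adjusted p = 5.2e-07). It was the 1 lower gene beside 2 higher ones, Rn7s1 and Rn7s2, in a list of 11 other short RNAs. Rn7s1 and Rn7s2 had identical values (0.36), so they amount to 1 reading. None of these lists held a gene that changed after IFNβ in 3s cells. In 30s cells 1 gene did, Phax, an adaptor that carries capped small RNAs, which rose by 0.26 (adjusted p = 0.025), and its effect of IFNβ also differed between the lines (adjusted p = 0.026).

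Other kinds of short RNA went either way. Among genes brighter than the median, 38.1% of the 63 snoRNA and Cajal RNA genes were lower in 3s cells with vehicle and 11.1% higher. RefSeq lists a further 416 snoRNA or guide RNA genes there under other names, of which 12.3% were lower and 3.61% higher, and of 292 miRNA genes 15.4% were lower and 3.42% higher. Of 559 snRNA genes 8.41% were lower and 31.7% higher, and of 9801 protein-coding genes 20.3% were lower and 33.9% higher. These kinds differ in brightness within that range. With a mean above 9, 45% of 40 members were lower and 15% higher. For the other snoRNA or guide RNA genes the shares there were 25.8% and 8.06% of 62. Many snRNA genes are near-identical copies, so their readings are not independent, and the difference between the kinds was not tested. Of the 45 probe sets that carried a snoRNA or Cajal RNA symbol beside another gene's, 16 were lower and 3 higher in 3s cells with vehicle, against 13.9% of all probe sets called in either direction. None of the 45 was called after IFNβ in 3s cells (0.259% of all probe sets) or in 30s cells (0.278%), with 1 in 3s cells and 9 in 30s cells at an unadjusted p under 0.05.

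**Figure D5:**
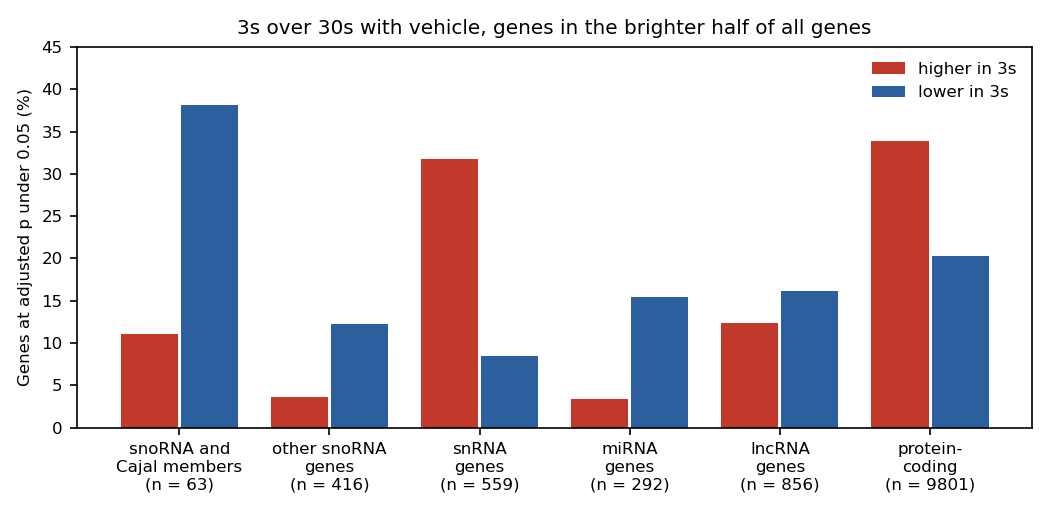
Share of genes (%) called higher and lower in 3s than in 30s cells with vehicle, for genes brighter than the median, by kind of RNA. Lower calls outnumber higher ones for the 63 snoRNA and Cajal RNA genes (38.1% against 11.1%), other snoRNA genes, miRNA genes and lncRNA genes, and higher ones outnumber lower ones for snRNA genes (31.7% against 8.41%) and protein-coding genes (33.9% against 20.3%).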

How the data were processed

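RNA of 12 cultures was hybridised to Affymetrix GeneChip MTA 1.0 arrays. The authors deposited log2 values from RMA, a method that subtracts background, brings all arrays to 1 distribution of values and combines the probes of a probe set, and the submitters' processing notes name Affymetrix Expression Console 1.4. They were used as deposited. Quantile normalisation equalises the arrays, so a shift of all RNAs of a cell would not show. Depth has no counterpart on arrays, and 3 arrays a group limit the precision. No source used here states the build of the array's annotation, so coordinates are left out, and names and hosts are those of RefSeq for GRCm38.p6. Sequences of the RNAs are not used here.

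Of 72688 probe sets 30638 carry 1 symbol, 2176 several and 33142 none, and 6732 are controls. Of these, 330 symbols were updated, none of them a member's. The probe set with the highest mean stood for a gene, which gave 30098 genes. All were fitted together in R 4.3.3 with limma 3.58.1 as 4 group means over 12 arrays (8 residual and 3.15 prior degrees of freedom), two-sided, with the Benjamini-Hochberg adjustment over all genes. A gene is called changed, higher or lower at an adjusted p under 0.05. Intervals are 95% intervals of the moderated test. The fit was tested on simulated data.

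The members and lists were chosen with earlier results of these data known. Members were named by a rule: the 5 brightest of each class, the 5 largest differences per comparison and direction among called members whose groups do not overlap, every member called after IFNβ, up to 4 of each subgroup, hosts and up to 4 genes of each partner list. Snord104, Snora20, Snord35a, Snord98, Snora69, Snord118, Snord13, Snord72, Snora19 and Snord111 with their hosts, and the members that share a host were named after their values were seen. So were Snord17, Snora2b, Snord71, Snord8 and Snord91a with theirs. The lists were core proteins of either class, assembly factors, Cajal body and cap factors, trimming and decay factors, noncoding hosts, RNAs of rRNA processing, Cajal RNAs, other short RNAs, and snoRNAs of Gas5 and of Snhg1, of which last 2 lists no member had a probe set of its own. The alternatives were to leave out each array, to fit the arrays of the comparison alone, to add a replicate block, to use limma with trend and robust moderation or the methods' t-test, to rescale by medians, by quantiles or by cyclic loess, to drop the genes below the median brightness, to adjust over all probe sets and to average a gene's probe sets. Another 2 were chosen after seeing the data: the IFNβ arrays for the lines, and leaving out members on probe sets with no genome position.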

Additional observations from a re-analysis of the deposited data

How the results depend on the processing

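After IFNβ in 3s cells, and for the difference of IFNβ effects, 0 members were called under every alternative run. The rise of Snora73a and Snora73b in 30s cells was fragile. The number called was 2 with the deposited values and 0 with only the arrays compared, with the replicate block, with the methods' t-test, with quantile normalisation, with cyclic loess and with all probe sets, and it ranged between 0 and 2 when 1 array was left out. Leaving out members on probe sets with no genome position, chosen after seeing the data, removes both genes and so gives 0 by construction. The replicate numbers are shared between groups but do not pair the cultures (correlations of deviations between -0.097 and 0.13). Between the lines with vehicle, 31 members were called, against 32 with the replicate block and 16 with the methods' t-test (1 higher and 15 lower). With 1 array left out between 26 and 31 were called. On the IFNβ arrays, where excision of Runx1 in 3s cells is added to the difference of line, 34 were called. Of the 31, 16 were called in all 22 alternatives that were planned, Snora47 higher and the other 15 lower. None of the 31 reversed in any. No class median moved by as much as its own SD within groups over arrays, while a change of its sign was not checked. Leaving out 3s vehicle replicate 1 left 3 called higher and 24 lower. Values near the background probe sets, and the wide spread of these genes, limit what could be detected.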
